A study of Mus musculus with 17 samples.

Results

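Genes for potassium channels and their subunits, aquaporins, CLC chloride channels, anoctamins, sodium channels and the subunits of the Na,K pump were grouped with Cftr and Slc12a2 by matching gene symbols to these families. Of 17097 genes with a probe set of their own, 120 were members: 77 potassium channel genes, 11 aquaporins, 11 voltage-gated sodium channel genes, 7 CLC genes, 5 anoctamins, 4 beta subunits of the Na,K pump, 3 subunits of the epithelial sodium channel, and Cftr with Slc12a2. The members include 3 non-coding RNAs (Kcnq1ot1, Kcnmb4os1 and Kcnmb4os2). The rule itself reads symbols only. The same symbols match 149 protein-coding genes of the mouse reference list, of which 32 were not analysed here.

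Sorted cells of male NOD mice, an inbred strain that develops lymphocytic infiltrates of the lacrimal gland and serves to model Sjögren's syndrome, were profiled on 17 arrays. B cells and CD4 T cells came from the lacrimal gland (4 arrays each) and from the spleen (3 each), and epithelial cells, sorted as CD326+ and CD45-, came from the gland (3 arrays). Mice were untreated as far as the labels say, and no group carried an engineered allele. Gland mice were 16 weeks old; for the spleen, the sample labels give 16 weeks and the design text gives 4 weeks, so tissue and age cannot be told apart in any comparison of gland with spleen. Glands were dissociated mechanically and with enzymes, and RNA was amplified before labelling. Values are deposited log2 levels, so a difference of 1 is a 2-fold ratio. Their median over all probe sets and arrays was 4.71, and a level under it was not shown to lie above background, because no detection calls were used here. The labels do not say that arrays came from separate animals, so p-values cover no more than the spread among these arrays, which may be technical, and the number of arrays limits the precision. In sorted bulk samples, fewer cells of a type and less RNA per cell cannot be told apart.

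Fluid secretion by exocrine glands is driven by chloride. The basolateral cotransporter encoded by Slc12a2 loads the cell with chloride, using the sodium gradient that the Na,K pump maintains. A rise in calcium then opens the apical chloride channel Ano1 and potassium channels such as Kcnma1 and Kcnn4, sodium follows between the cells, and water passes through Aqp5. In lymphocytes the same kinds of protein have another task: Kcna3 and Kcnn4 let potassium out, which holds the membrane negative and sustains calcium entry after antigen receptor engagement.

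The identity of the sorted groups was checked on marker lists. The mean level of 7 CD4 T cell markers was 10.05 to 10.20 in CD4 T cell arrays and 4.12 to 4.67 in B cell arrays, and that of 6 B cell markers was 9.94 to 10.21 in B cells. The 8 epithelial markers averaged 8.98 to 9.53 in epithelial arrays, 5.52 to 6.05 in gland lymphocytes and 3.83 to 3.94 in spleen lymphocytes. The epithelial arrays also carried endothelial markers (5 genes averaging 8.08 to 8.62, with Kdr at 8.91 to 9.20), myoepithelial markers (6 genes, 8.75 to 9.03), red cell and platelet markers (4 genes, 6.90 to 7.15) and fibroblast markers (4 genes, 5.14 to 5.62), whereas 4 neuronal markers averaged 2.88 to 3.01. Epithelial array 1 stood apart: its leukocyte gene Ptprc was at 9.62, against 2.42 and 2.36 in the other two. The counts of members called in epithelium, and the differences of some members, are therefore also given without it.

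Across the 5 groups, 27 members had group means above the median of all values in every group, 64 lay below it in every group, and the remaining members were above it in some. Members above it numbered 38 for B cells of the gland, 35 for those of the spleen, 38 for CD4 T cells of either tissue and 41 for epithelium. The shares of all genes above it were 57.1% (gland) and 56.4% (spleen) for B cells. For CD4 T cells they were 57.8% (gland) and 56.2% (spleen), and for epithelium 60.7%. In each group a smaller share of the 120 members than of all genes was above it. The 27 and the 64 were not set against all genes. In 6 comparisons fitted with limma over all 17097 genes, calls required at least a 2-fold change and a p under 0.05 after Benjamini-Hochberg adjustment. Of the members, 31 were called in at least 1 comparison and 89 in none, and 59 of these 89 lay below the median level in every group. The share of all genes called in at least 1 comparison was not counted, so these numbers have no background here. The called members were 21 of 77 potassium channel genes, 4 of 11 aquaporins, 2 of 4 pump subunits, 1 of 5 anoctamins, 1 of 7 CLC genes, 1 of 11 voltage-gated sodium channel genes, Slc12a2, and none of the epithelial sodium channel subunits.

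The lacrimal epithelium carried the chloride-secreting set at high levels. Against the averaged gland B and gland CD4 T cell levels, Slc12a2 was higher by 7.62-fold, Ano1 by 17.6-fold, Aqp5 by 13.4-fold, the pump subunit Atp1b1 by 3.69-fold and the calcium-activated potassium channel Kcnma1 by 8.01-fold (3 epithelial against 8 lymphocyte arrays). In all, 19 members were called higher in epithelium and 5 lower. Over all genes 14.9% were called higher and 9.81% lower, so the 15.8% of members called higher is close to the background. After centring each array on its median, 18 members were higher and 7 lower, and the share of all called genes that were higher moved from 60.2% to 43.1%. Without epithelial array 1, 20 members were higher and 6 lower, which included the 19 and the 5.

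Among 21 measured genes of a fluid secretion list, 9 (42.9%) were called higher in epithelium and none lower. The median log2 difference of the 21 was 0.83, and that of all genes was -0.10. This list, like those below, was chosen with earlier results of these data known. Its shares describe the list and are not a test of it. The 9 were Slc12a2, Atp1b1, Ano1, Aqp1, Aqp5, Aqp8, Kcnma1, and the pair Kcnq1 and Kcne3, a potassium channel and a small subunit that keeps it open.

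Slc12a2, the sodium, potassium and chloride cotransporter, was at 11.17, 11.31 and 11.23 in the 3 epithelial arrays, at 7.44, 7.49, 8.30 and 8.21 in gland B cells and at 8.46, 8.87, 8.76 and 8.92 in gland CD4 T cells. Every epithelial array was above every lymphocyte array, and gland CD4 T cells were above gland B cells without overlap. The epithelial difference was 2.93 ± 0.18 (log2 ± SE, limma adjusted p = 7.64e-10). Atp1b1, which carries the pump to the membrane, was at 11.49, 11.67 and 11.66 in epithelium, and no lymphocyte array exceeded 10.75. Its difference was 1.88 ± 0.11 (limma adjusted p = 5.21e-10). Atp1b3, the other abundant beta subunit, had its highest levels in CD4 T cells rather than in epithelium, as given with the lymphocytes.

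Ano1, the calcium-activated chloride channel of the apical membrane, was at 9.66, 9.90 and 9.88 in epithelium, and its difference was 4.13 ± 0.38 (limma adjusted p = 9.03e-08). The second chloride exit, Cftr, stayed dim: epithelial arrays were at 4.25, 4.48 and 4.96 and gland lymphocyte arrays at 3.57 to 3.88. The groups did not overlap, but the difference of 0.83 (limma adjusted p = 1.16e-05) was under 2-fold. Ano6, a calcium-activated lipid scramblase, was at 9.46, 9.81 and 9.56 in epithelium and between 8.89 and 9.34 in all 14 lymphocyte arrays.

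The aquaporins differed among themselves. Aqp5, the apical water channel of acinar and ductal cells, was at 10.74, 10.87 and 10.81 in epithelium, with a difference of 3.74 ± 0.18 (limma adjusted p = 3.74e-11). Aqp1 was at 9.16, 9.68 and 9.08 in epithelium and between 3.12 and 5.36 in gland lymphocytes, the largest difference among the members at 5.37 ± 0.31 (limma adjusted p = 3.23e-10). Aqp1 is a textbook marker of capillary endothelium, and endothelial and red cell markers were high on the same 3 arrays. Their part in the Aqp1 result was not tested. Aqp8 reached 7.75, 6.14 and 6.84, a difference of 2.73 ± 0.30 (2.31 without array 1), and epithelial array 1, the one with leukocyte transcripts, was the highest of the 3. Aqp9, a channel for glycerol and other small solutes, was at 5.74, 4.93 and 4.67, a difference of 1.67 ± 0.21 (1.35 without array 1, again the highest of the 3). Aqp3 (5.13, 5.36 and 5.53 in epithelium) and Aqp4 (3.43, 3.50 and 3.49) were not called. Another probe set of Aqp4 averaged 6.31 in epithelium, a difference of 3.87.

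Of the potassium channels, Kcnk1, a background channel of the family with a pair of pore domains per subunit, was at 9.82, 9.88 and 9.78 in epithelium and its difference was 4.02 ± 0.35 (limma adjusted p = 5.01e-08). Kcnma1 was at 6.22, 6.44 and 6.74, against 3.24 to 3.98 in gland lymphocytes. Kcnn4, its smaller-conductance counterpart, was at 9.66, 10.25 and 10.01. That was above gland B cells and below gland CD4 T cells (10.42 to 10.53) without overlap, so Kcnn4 did not meet the rule, which asks for a level above both subsets. Kcnk5, a channel of the same family as Kcnk1 that takes part in volume regulation, was at 7.39, 7.69 and 7.73, a difference of 1.94 ± 0.19. Kcnq1 was at 5.26, 5.57 and 5.38 against 3.61 to 4.05 in gland lymphocytes, and Kcne3 at 4.77, 4.80 and 5.45 against 1.31 to 2.18. The remaining potassium channel genes called higher were Kcne4 (2.05), Kcnj15 (1.76), Kcnj8 (1.59), Kcnj16 (1.39), Kcnd3 (1.37) and Kcnh1 (1.18), and the mean epithelial level was under the median of all values for Kcnj15, Kcnj8, Kcnj16 and Kcnh1, although other probe sets of Kcnj16 and Kcnh1 averaged 6.77 and 6.67 there. Kcnj8 is the pore subunit of an ATP-sensitive channel of vascular cells, and the endothelial markers above were high on the same arrays. The part of other sorted cells in its value was not tested. With probe sets averaged per gene, the epithelial differences of Kcnd3 (0.308), Kcnk5 (0.987) and Aqp9 (0.996) were under 2-fold.

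Scn7a, which encodes a sodium-sensing relative of the voltage-gated channels, was the only one of the 11 voltage-gated sodium channel genes to be called. It was at 6.63, 7.79 and 7.14 in epithelium and at 3.05 to 3.59 in gland lymphocytes, a difference of 3.88 ± 0.19 (limma adjusted p = 5.01e-11). The subunits of the epithelial sodium channel, which reabsorb sodium in ducts, did not pass the fold rule: Scnn1a was at 2.78, 2.83 and 3.82, Scnn1b at 5.38, 5.37 and 5.22, and Scnn1g at 4.19, 4.54 and 4.58 in epithelium. Clcn3, an endosomal exchanger, was at 10.48, 10.40 and 10.40 against 9.16 to 10.13 in gland lymphocytes, a difference of 0.68 that was under 2-fold.

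The 5 members lower in epithelium were all among the potassium channel genes. Kcnab2, a cytoplasmic subunit that binds voltage-gated potassium channels, was at 5.18, 3.29 and 2.33 in epithelium and at 6.34 to 7.41 in gland lymphocytes. Epithelial array 1, with leukocyte transcripts, was the highest of the 3. The difference was -3.38 ± 0.37 (limma adjusted p = 6.27e-07), and -4.17 without that array. Kcna3 was at 4.59, 3.78 and 3.84, a difference of -1.54 ± 0.17, and -1.80 without array 1. Kcnq5 (-1.75), Kcnf1 (-1.35) and Kcnmb4 (-1.06) were the others, and the Kcnf1 arrays of epithelium and gland B cells overlapped.

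**Figure D1:**
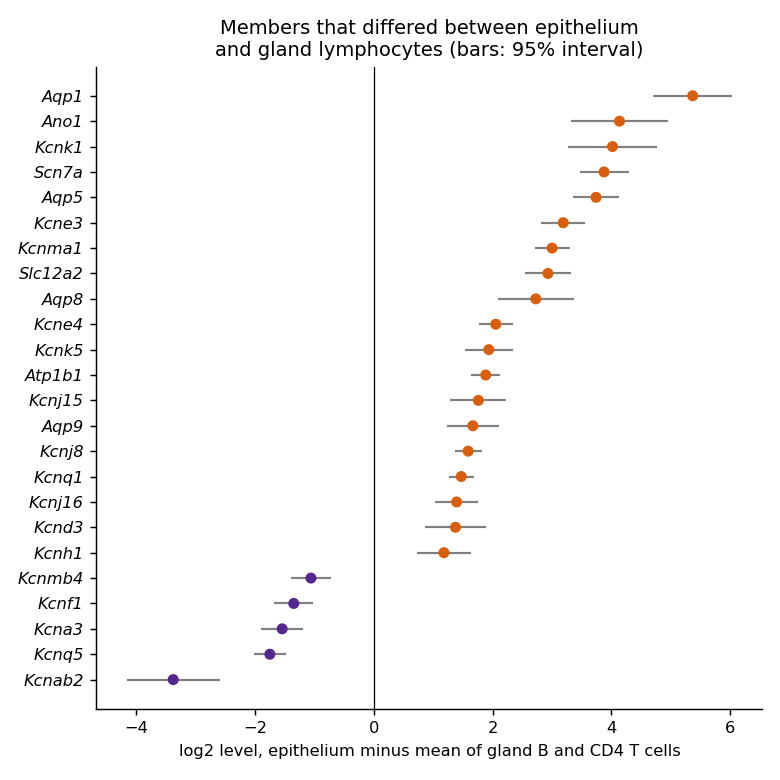
Log2 level in lacrimal epithelium (3 arrays) minus the averaged level of the gland B and CD4 T cell groups (4 arrays each) for the 24 members called in that comparison, one row per gene, with bars for the 95% interval of the limma fit. Intervals of the 19 higher members lie right of 0 and those of the 5 lower members left of it, with Aqp1 at 5.37 and Kcnab2 at -3.38 as the ends.

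**Figure D2:**
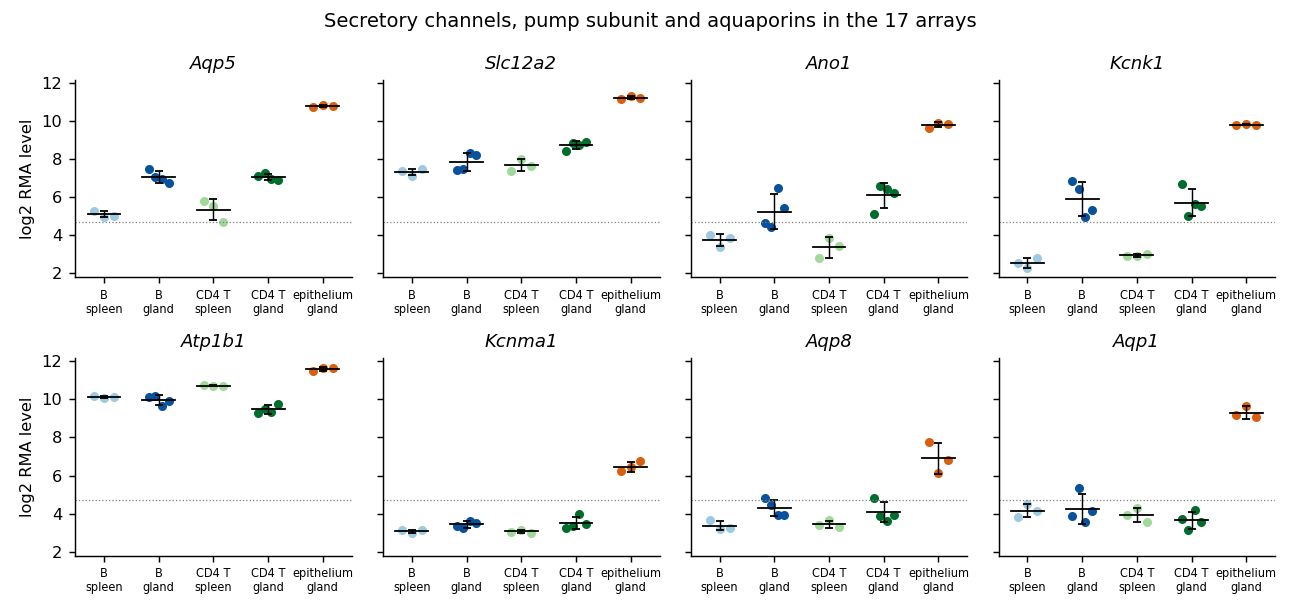
Log2 levels of the secretory members in each of the 17 arrays, grouped by cell type and tissue, where each point is 1 array, the bar is the mean and the whisker the standard deviation; the dotted line marks the median of all values, 4.71. For Aqp5, Ano1 and Kcnk1 the gland lymphocyte arrays sit between the spleen arrays and the epithelium.

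Of the 19 members called higher in epithelium, 3 were also called higher in B cells of the gland and 4 in its CD4 T cells, each against the spleen, while Atp1b1 and Aqp9 were called lower in gland CD4 T cells. The same overlap was not counted over all genes called higher in epithelium, so these numbers have no background here. Gland B cells had 3 members called higher than spleen B cells and none lower, against a background of 2.58% of genes higher and 1.6% lower, so 3 of 120 is close to the background. No member was called lower under the fold rule. In either direction, 23 members had an unadjusted p under 0.05 in the limma fit, a share that was not counted over all genes. After adjustment 13 of 120 members had a p under 0.05, as did 3019 of all 17097 genes. With no fold minimum, 5 members were lower at an adjusted p under 0.05, as were 1687 of all 17097 genes. The 3 were Kcnk1 (10.3-fold), Aqp5 (3.9-fold) and Ano1 (2.85-fold). The same 3 were called higher in gland CD4 T cells.

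The sequences of the 250 bases before the start of these 3 genes are printed because the 3 were called higher in the gland in both lymphocyte subsets. They are from RefSeq, build GRCm38.p6, read 5′ to 3′ on the gene's strand. By the levels given below, the array lowest in Kcnk1 was the highest in Ano1 in either gland lymphocyte group. This order was not tested, and each group has few arrays. The windows are Aqp5 at chr15:99590778-99591027 on the plus strand, Ano1 at chr7:144738574-144738823 on the minus strand and Kcnk1 at chr8:125994852-125995101 on the plus strand. Capitals mark GGGCGG, the GC box, or AGGAAG, an ETS core.
Aqp5: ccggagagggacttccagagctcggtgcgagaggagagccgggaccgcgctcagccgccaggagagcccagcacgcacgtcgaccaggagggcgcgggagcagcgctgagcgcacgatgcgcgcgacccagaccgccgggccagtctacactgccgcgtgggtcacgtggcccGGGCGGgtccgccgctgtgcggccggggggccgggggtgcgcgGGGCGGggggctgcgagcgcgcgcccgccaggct
Ano1: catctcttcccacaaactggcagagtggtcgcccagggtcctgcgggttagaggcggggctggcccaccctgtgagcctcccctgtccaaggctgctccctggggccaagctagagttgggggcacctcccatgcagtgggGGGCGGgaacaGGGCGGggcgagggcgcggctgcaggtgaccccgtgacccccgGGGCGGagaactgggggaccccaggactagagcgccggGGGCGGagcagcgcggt
Kcnk1: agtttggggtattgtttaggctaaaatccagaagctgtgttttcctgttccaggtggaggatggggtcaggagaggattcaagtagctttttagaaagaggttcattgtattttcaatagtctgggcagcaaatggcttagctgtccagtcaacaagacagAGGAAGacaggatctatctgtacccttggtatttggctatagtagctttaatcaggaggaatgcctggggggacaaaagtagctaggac
The windows of Aqp5 and Ano1 were rich in GC and CpG, and that of Kcnk1 was not. Aqp5 had 78.4% GC and 38 CpG dinucleotides with 2 GC boxes, Ano1 had 72% GC, 16 CpG and 4 GC boxes, and Kcnk1 had 44.4% GC, 0 CpG and 1 ETS core. The median over 32851 windows was 52.4% GC and 6 CpG. Searched on both strands, GGGCGG was in 32.7% of all windows and AGGAAG in 29.5%; TATAAA (12.4%), CCAAT (33.8%), TGANTCA (6.7%) and TGGAAA (18.6%) were searched as well. A match describes letters in the window and not a bound site.

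Aqp5 was at 7.48, 7.07, 6.96 and 6.75 in gland B cells and at 5.28, 4.99 and 5.03 in spleen B cells. CD4 T cells were at 7.13, 7.26, 6.98 and 6.91 in the gland and at 5.80, 5.52 and 4.72 in the spleen. Gland arrays of either subset were above all spleen arrays and below all epithelial arrays, with differences from spleen of 1.96 ± 0.21 in B cells (limma adjusted p = 8.07e-06) and 1.72 ± 0.21 in CD4 T cells (limma adjusted p = 1.3e-05).

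Kcnk1 was at 6.87, 6.43, 4.95 and 5.34 in gland B cells against 2.52, 2.27 and 2.81 in spleen B cells, a difference of 3.36 ± 0.40 (limma adjusted p = 2.95e-05). CD4 T cells were at 6.68, 4.99, 5.66 and 5.57 in the gland and at 2.91, 2.91 and 3.02 in the spleen, a difference of 2.78 ± 0.40 (limma adjusted p = 8.09e-05). The gland arrays varied more than the spleen arrays, and the groups did not overlap. A second probe set of Kcnk1 gave smaller differences, 0.77 (B cells) and 0.81 (CD4 T cells).

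Ano1 was at 4.66, 4.42, 6.50 and 5.44 in gland B cells against 4.01, 3.39 and 3.84 in spleen B cells, a difference of 1.51 ± 0.43 (limma adjusted p = 0.024). CD4 T cells were at 5.13, 6.58, 6.45 and 6.24 against 2.80, 3.87 and 3.47, a difference of 2.72 ± 0.43 (limma adjusted p = 2.04e-04). Groups did not overlap, but the B cell call was lost with the mean of the probe sets (0.998, under 2-fold), in a fit of only the B cell arrays (1.51, adjusted p = 0.0565), and without gland B array 3 (adjusted p = 0.0557), gland B array 4 (0.0516), spleen B array 2 (0.104) or spleen B array 3 (0.0594), and a second Ano1 probe set gave differences of 0.49 (B cells) and 0.56 (CD4 T cells). Slc12a2 was also called in CD4 T cells, at 8.46, 8.87, 8.76 and 8.92 in the gland and 7.38, 8.03 and 7.65 in the spleen, a difference of 1.06 ± 0.21 (limma adjusted p = 0.0012) that was under 2-fold without spleen T array 1 (0.911) and after centring (0.908).

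Epithelial transcripts were raised in the same arrays. Krt18, an epithelial keratin, was at 8.53 ± 0.23 in gland B cells (SD, n = 4) and 8.69 ± 0.32 in gland CD4 T cells (SD, n = 4), at 4.25 ± 0.09 and 4.64 ± 0.14 in the spleen groups (SD, n = 3 each) and at 12.06 ± 0.12 in epithelium (SD, n = 3). Of the 8 epithelial markers, 4 were called higher in gland B cells and 5 in gland CD4 T cells. Among 1660 genes whose epithelial level was 4-fold or more that of spleen B cells, 15.9% were called higher in gland B cells, against 1.15% of the other genes. A low spleen mean favours both the choice of these genes and a gland call, so part of this contrast was built in. Among the members, the 3 called were among 10 such members, and 0 of the other 110 were called. The corresponding shares for CD4 T cells were 26.8% of 1633 such genes and 3.08% of the others. There, 4 of 11 such members (Kcnk1, Ano1, Aqp5 and Slc12a2) and 3 of the other 109 (Kcnc2, Kcnk6 and Kcnq5) were called. The part of epithelial RNA in the first 4 was not tested.

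In CD4 T cells as a whole, 7 members were higher in the gland and 3 lower, with 5.35% of all genes higher and 1.62% lower. After centring on array medians the split was 6 higher and 4 lower, and the share of all called genes that were higher moved from 76.7% to 64%, with the median of all genes moving from -0.03 to -0.18. The tissue difference itself differed between CD4 T and B cells for 7 members, 4 more positive in CD4 T cells and 3 more negative, where 3.87% and 1.22% of all genes were so called. After centring, the share of all such calls that were more positive was 64.1% rather than 76.1%, and the members' counts stayed at 4 and 3.

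Kcnc2, a fast delayed rectifier best known from neurons, was the clearest of these. It was at 4.89, 5.45, 5.56 and 5.16 in gland CD4 T cells and at 2.41, 2.92 and 2.61 in spleen CD4 T cells. In gland B cells it was at 2.10, 2.23, 2.29 and 2.22, in spleen B cells at 2.02, 2.11 and 2.26, and in epithelium at 2.92, 2.14 and 2.11. Only gland CD4 T cells were above the median of all values, and no array of another group reached their lowest. The T cell difference was 2.62 ± 0.19 (limma adjusted p = 5.83e-08) and the difference between the subsets' tissue effects was 2.54 ± 0.27 (limma adjusted p = 1.02e-05). The 4 neuronal markers averaged 3.10 to 3.17 in gland CD4 T cells and 3.12 to 3.24 in spleen CD4 T cells.

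Kcnk6, another channel of the Kcnk family, was at 5.76, 6.43, 6.08 and 6.03 in gland CD4 T cells and at 3.68, 4.19 and 4.15 in spleen CD4 T cells, a difference of 2.07 ± 0.18 (limma adjusted p = 3.74e-07). B cells moved the other way without a call, from 4.39, 4.10 and 4.49 in the spleen to 3.89, 4.18, 3.58 and 3.94 in the gland, and the difference between the tissue effects was 2.495 ± 0.25 (limma adjusted p = 6.41e-06). Epithelium was at 5.51, 5.63 and 5.17, below every gland CD4 T array.

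Kcnq5, a slowly activating channel of the Kcnq family, was higher in B cells than in any other group. It was at 8.15, 8.08, 7.93 and 7.96 in gland B cells and at 7.65, 7.87 and 7.90 in spleen B cells. CD4 T cells were at 6.93, 6.89, 7.07 and 6.66 in the gland and at 5.34, 5.51 and 5.66 in the spleen, a difference of 1.39 ± 0.14 (limma adjusted p = 2.96e-06). Gland CD4 T cells thus lay between spleen CD4 T cells and B cells with no overlap, and the tissue effects differed by 1.16 ± 0.20 (limma adjusted p = 0.00125). A second Kcnq5 probe set gave 0.60 in CD4 T cells, and the mean of its probe sets 0.74, under 2-fold. With that mean, the difference between the tissue effects was 0.518 (limma adjusted p = 0.106) and was not called. Under quantile normalization it was 0.981, under 2-fold.

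Kcnk5 changed in opposite directions. B cells went from 6.27, 6.51 and 6.35 in the spleen to 5.80, 5.35, 5.94 and 5.80 in the gland, and CD4 T cells from 4.75, 4.91 and 4.83 to 5.18, 6.35, 5.46 and 5.42. Neither change reached 2-fold (-0.65 and 0.77), the groups did not overlap within either subset, and the difference of 1.43 ± 0.30 passed (limma adjusted p = 0.00512). Its second probe set was dim and flat, and the call was lost with the mean of both.

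Of the members lower in gland CD4 T cells, Atp1b1 was at 9.27, 9.52, 9.34 and 9.77 in the gland and at 10.75, 10.69 and 10.72 in the spleen, a difference of -1.25 ± 0.13 (limma adjusted p = 2.72e-06). All 3 of its probe sets were lower in the gland (-1.25, -1.31 and -1.39). In B cells it was at 10.14, 10.17, 9.63 and 9.93 in the gland and 10.19, 10.09 and 10.11 in the spleen, and the groups overlapped. Kcnmb4, an accessory subunit of the Kcnma1 channel, was at 5.16, 5.64, 4.77 and 5.70 in gland and 6.57, 6.35 and 6.66 in spleen CD4 T cells (-1.21 ± 0.18). Aqp9 was at 3.56, 3.33, 2.94 and 3.32 in gland and 4.89, 5.03 and 4.28 in spleen CD4 T cells (-1.44 ± 0.24). Aqp9 was near the median of all values in spleen CD4 T cells and below it in the gland, and with the mean of its probe sets the difference was -0.78, under 2-fold.

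**Figure D3:**
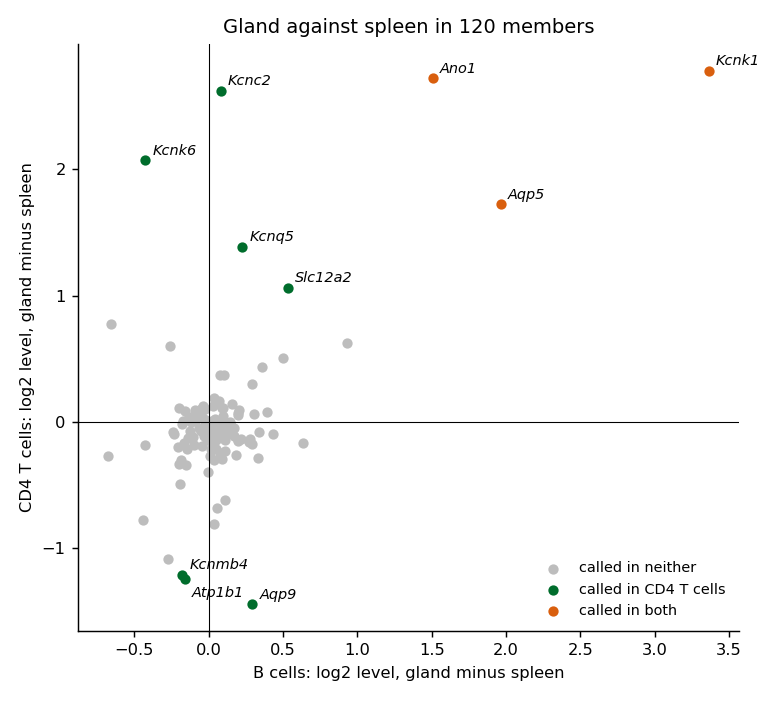
Log2 difference between gland and spleen, for B cells on the horizontal axis and CD4 T cells on the vertical axis, over the 120 members, one point per gene, with the members named that were called in either subset. Kcnk1, Aqp5 and Ano1 lie right of and above 0, and Kcnc2 and Kcnk6 lie above 0 for CD4 T cells at B cell values near or below 0.

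All gland arrays, of lymphocytes and epithelium alike, also had raised immediate early genes. The 6 genes of that list averaged 10.25 to 10.42 in gland B cells, 9.68 to 9.82 in gland CD4 T cells and 10.32 to 10.34 in epithelium, against 6.24 to 6.50 in the spleen groups. Their part in the tissue differences above was not tested.

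Between B and CD4 T cells, in the gland 5 members were lower in B cells and 1 higher (background 5.97% and 3.73% of genes), and in the spleen 7 were lower and 3 higher (4.52% and 4.63%). Of these, 4 lower and 1 higher in the gland, and 5 lower and 2 higher in the spleen, were among the 77 potassium channel genes.

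Kcnn4, the calcium-activated potassium channel of activated lymphocytes, separated the subsets most widely. It was at 6.66, 6.11, 7.27 and 7.12 in gland B cells and 10.44, 10.42, 10.53 and 10.46 in gland CD4 T cells, a difference of -3.67 ± 0.19 (limma adjusted p = 2.94e-10), so B cells were 12.8-fold lower. In the spleen it was at 7.41, 7.53 and 7.45 against 10.91, 10.55 and 10.74, 9.64-fold lower in B cells (limma adjusted p = 9.69e-09). Both subsets had slightly lower means in the gland (by -0.68 and -0.27), and neither change was called. Gland and spleen arrays did not overlap within either subset.

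Kcna3, the voltage-gated channel of T cells, was at 5.68, 5.54, 5.90 and 6.15 in gland and 5.15, 5.41 and 5.36 in spleen CD4 T cells, a difference of 0.51 (95% interval 0.11 to 0.90, limma adjusted p = 0.0624). In B cells it was at 5.10, 5.47, 5.49 and 5.59 in the gland and 4.92, 4.80 and 5.03 in the spleen, a difference of 0.50 (95% interval 0.10 to 0.89, limma adjusted p = 0.0806). Gland arrays were above spleen arrays in both subsets without overlap, yet the differences did not pass the adjusted threshold.

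Atp1b3 was at 10.28, 10.36, 10.31 and 10.35 in gland CD4 T cells and 11.05, 10.96 and 11.03 in spleen CD4 T cells, and at 8.55, 8.51, 8.99 and 8.70 and 8.53, 8.65 and 8.71 in the B cell groups. B cells were 3.12-fold lower in the gland (limma adjusted p = 2.59e-09) and 5.21-fold lower in the spleen (limma adjusted p = 1.95e-10). The fall in gland CD4 T cells, -0.69 (limma adjusted p = 2.47e-04), was under 2-fold, so both pump subunits that were above the median level had lower means in CD4 T cells of the gland.

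Kcnf1, which encodes a subunit that forms no channel of its own and modifies others, was at 6.39, 5.99, 6.91 and 6.79 in gland and 6.26, 6.20 and 5.97 in spleen CD4 T cells, and at 4.14 to 4.55 in all B cell arrays. It was lower in B cells by 4.48-fold in the gland and 3.71-fold in the spleen. Kcnab2 had lower means in B than in CD4 T cells in both tissues without overlap, but was not called in either (gland -0.72, limma adjusted p = 0.182; spleen -1.06, limma adjusted p = 0.111). The spleen difference was called under 3 of 17 alternatives, among them the fit whose shared spread leaves out epithelial array 1 (limma adjusted p = 3.38e-04). In the spleen alone, Kcnmb4 (-1.91), Aqp9 (-1.42), Kcnh2 (-1.41) and Kcna2 (-1.15) were also lower in B cells, and Kcnq5 (2.31), Kcnk5 (1.55) and Clcn5 (1.47) higher. Clcn5, an endosomal chloride and proton exchanger, was at 10.09, 9.66 and 9.87 in spleen B cells against 8.36, 8.38 and 8.48 in spleen CD4 T cells. In the gland only Kcnq5 was called higher in B cells (1.14).

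**Figure D4:**
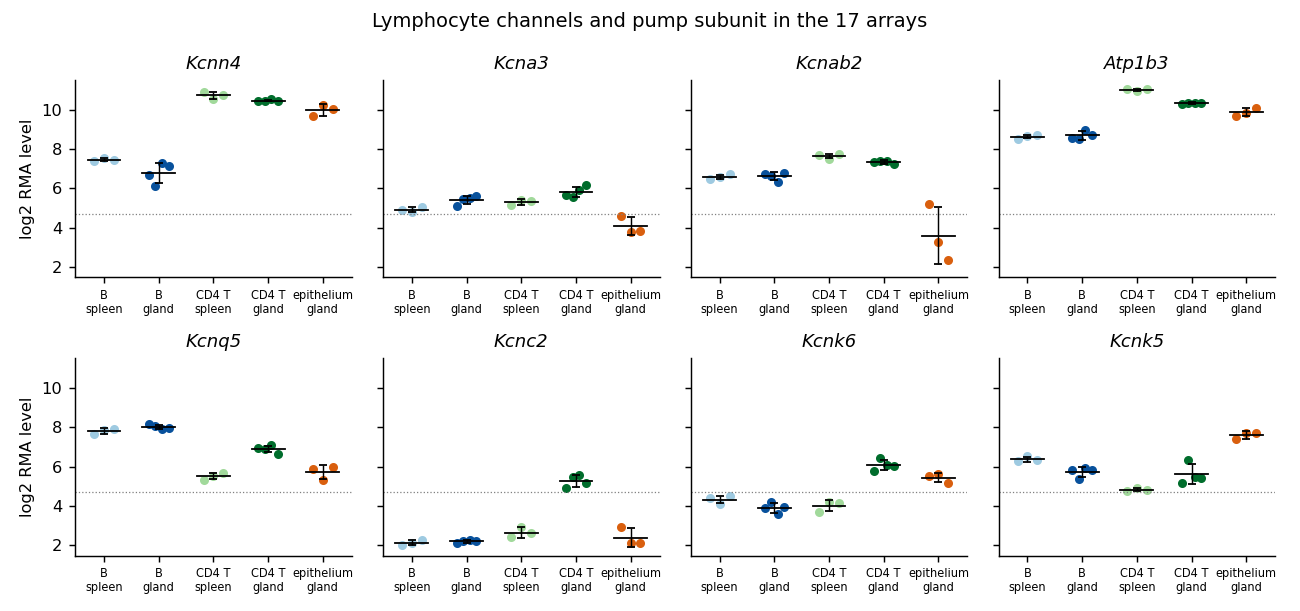
Log2 levels of 8 lymphocyte members in each of the 17 arrays by cell type and tissue; each point is 1 array, the bar is the mean, the whisker the standard deviation and the dotted line the median of all values, 4.71. Kcnn4 and Atp1b3 separate CD4 T from B cells in both tissues, and Kcnc2 stands above the line in gland CD4 T cells.

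Of 20 measured genes of a lymphocyte channel list, none was called between gland and spleen B cells (all genes 2.58% higher and 1.6% lower). In gland CD4 T cells 10% rose (Kcnk6 and Kcnq5) and 10% fell (Atp1b1 and Aqp9), against 5.35% and 1.62% of all genes. In epithelium 4 (20%) were higher (Kcnk5, Atp1b1, Aqp9 and Kcnj8) and 3 (15%) lower (Kcnab2, Kcnq5 and Kcna3), against 14.9% and 9.81% of all genes.

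Neighbouring genes of ion transport were counted from further lists, to be read against the 14.9% of all genes called higher in epithelium and the 9.81% called lower. Among 7 FXYD genes, small regulators of the Na,K pump, 3 (42.9%) were called higher in epithelium and 1 (14.3%) lower; Fxyd3 differed by 4.67 and Fxyd2 by 3.53, and Fxyd5 was lower by -1.37. Of 16 acid and base transport genes 5 (31.2%) were higher, among them the carbonic anhydrases Car12 (4.73), Car6 (3.65) and Car4 (3.39) and the sodium and proton exchanger Slc9a3 (3.07). Of 14 further cotransporters and their kinases 3 (21.4%) were higher, led by Stk39 (2.84), a kinase that activates the Slc12a2 cotransporter. Of 7 receptors that trigger secretion 1 (14.3%) was higher, the muscarinic receptor Chrm3 (1.48), a share close to that of all genes.

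Of 17 calcium release and entry genes 4 (23.5%) were lower in epithelium, Ryr1 (-2.84), Orai2 (-2.83), Itpr2 (-2.21) and Orai1 (-1.14), and 1 (5.88%) was higher, the calcium pump Atp2a2 (1.13). The list's median difference was -0.19, and that of all genes -0.10. Of 19 TRP, purinergic and other channels 2 (10.5%) were lower, the proton channel Hvcn1 (-3.93) and Trpv2 (-3.01), and 3 (15.8%) higher, Trpv6 (2.36), P2rx4 (1.93) and Trpm6. Of 13 volume-regulated anion channel, bestrophin and related genes 1 (7.69%) was higher, Lrrc8e (1.31), and 1 lower, Ttyh3 (-1.42).

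Gland against spleen calls are to be read against 2.58% of all genes higher and 1.6% lower in B cells. For CD4 T cells the shares were 5.35% and 1.62%. Higher in gland B cells were 2 of 7 FXYD (28.6%), 2 of 16 acid and base (12.5%) and 1 of 14 cotransport genes (7.14%). In gland CD4 T cells 1 gene of each was higher (14.3%, 6.25% and 7.14%). There 1 of 17 calcium genes was higher and 1 lower (5.88% each), and 1 of 19 TRP and other channels was higher (5.26%). In gland B cells 1 of 13 anion channel genes was lower (7.69%). Gland CD4 T cells had higher Orai1 (1.03), the pore of store-operated calcium entry, higher Trpm6 (1.73) and lower Ryr2 (-1.98), a calcium release channel. The tissue effects of Ryr2 and Trpm6 differed between the subsets by -2.40 and 1.85. Gland B cells had lower Ttyh1 (-1.61), and higher Car2 (1.56) and Fxyd5 (1.39). Car6, Fxyd3 and Stk39 were higher in both gland subsets, and all 3 are among the genes called higher in epithelium.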

How the data were processed

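The authors deposited log2 expression values per probe set, computed with RMA and Partek per the submitters' processing notes; versions are not given in the sources used here. Of 45141 probe sets, 28898 had exactly 1 gene in the platform annotation, and a gene's brightest probe set, averaged over the 17 arrays, stood for it. Levels were not compared between probe sets. Groups came from sample titles. Members and gene lists were chosen with earlier results of these data known.

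The 5 group means were estimated with limma 3.58.1 (R 4.3.3; lmFit and eBayes, 12 residual and 3.17 prior degrees of freedom) on all 17097 genes with no filter, and p-values were Benjamini-Hochberg adjusted over all of them. A call needed an adjusted p under 0.05 and at least a 2-fold change; in the comparison of epithelium with gland lymphocytes, the epithelial mean also had to lie beyond both subsets. Errors are SD between arrays or SE of the fit. Named were the members called in any comparison, the members of the fluid secretion and lymphocyte channel lists, and up to 4 called genes of each other list in a comparison. A planned naming of the highest member of each family was dropped, since it would compare probe sets.

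On simulated data with 200 of 17097 genes shifted by 1.5, from 90.5% to 98.5% were recovered across the 6 comparisons. The labels do not say that equal replicate numbers pair the samples. Deviations of same-numbered arrays correlated between -0.397 and 0.215, which cannot settle it with so few arrays per group. Alternatives were centring, quantile normalization, other probe set rules, a filter on dim genes, no fold minimum, leaving out arrays or genes high in epithelium, fewer samples in the fit and a replicate block. One more, leaving epithelial array 1 out of the shared spread, was chosen after seeing the data.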

Additional observations from a re-analysis of the deposited data

Results flagged for a closer look

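The tissue effect (gland minus spleen) differed between CD4 T and B cells by the limma fit for 7 members. It was more positive in CD4 T cells for Kcnc2 (2.54), Kcnk6 (2.495), Kcnk5 (1.43) and Kcnq5 (1.16), and more negative for Aqp9 (-1.73), Atp1b1 (-1.08) and Kcnmb4 (-1.03). With the mean of probe sets, the calls of Kcnk5, Kcnq5 and Aqp9 were lost. That of Kcnq5 was also lost under quantile normalization, and that of Kcnmb4 when certain single arrays were left out.

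A single array lay far from the other 3 of its group for 6 of the 92 member and group pairs looked at, where chance gives about 1 in 20. Aqp4 was at 3.37 in gland B array 1 (others 3.17 to 3.18), Kcne1 at 3.71 in gland B array 2 (others 3.74), Kcnh1 at 3.11 in gland B array 3 (others 3.48 to 3.54) and Scnn1b at 5.57 in gland B array 3 (others 5.33 to 5.36). Clcn6 was at 7.60 in gland CD4 T array 2 (others 7.27 to 7.32) and Kcnj15 at 2.14 in the same array (others 2.61 to 2.70).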

How the results depend on the processing

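Of 60 calls of members, 43 stood under every alternative run, 17 were lost under at least 1, and 0 changed direction. With no fold minimum, members higher and lower numbered 8 and 5 in gland against spleen B cells (1332 and 1687 of all 17097 genes). They numbered 32 and 27 in epithelium (all genes 4569 and 6041). In gland B against CD4 T cells they were 16 and 11 (2451 and 2745), and in spleen 7 and 13 (1906 and 1937). At this setting 9 were lower in gland CD4 T cells (all genes 1827) and 9 were more negative in the difference between subsets (611). Leaving out genes 4-fold or more above the spleen group in epithelium, 0 members were higher in gland B cells and 3 in gland CD4 T cells, by construction. With the most variable probe set, 5 members were lower in gland CD4 T cells, 5 were more negative in the difference, and 3 were higher in gland B than CD4 T cells; with the mean of probe sets, 2 were more positive in the difference and 0 were higher in gland B than CD4 T cells, and Ano1, Aqp9, Kcnq5, Kcnk5, Kcna2 and Kcnd3 each lost a call. Leaving out each array in turn gave ranges of 2 to 3 higher and 0 to 0 lower in gland B cells, 6 to 7 and 3 to 3 in gland CD4 T cells, 4 to 4 and 2 to 4 in the difference, 17 to 20 and 4 to 6 in epithelium, 1 to 1 and 5 to 7 in gland B against CD4 T cells, and 3 to 3 and 7 to 7 in spleen. Kcnmb4 (difference between subsets, and epithelium), Kcnd3 and Kcnh1 (epithelium) each fell below 2-fold when 1 array was left out; Kcnmb4 fell from -1.03 to -0.85 without gland CD4 T array 3. With the replicate block, 4 members were higher in gland B cells (Aqp8 added) and 6 in gland CD4 T cells (Slc12a2 lost). In epithelium 4 were lower (Kcnmb4 lost), and the other counts were equal to those above. The labels do not say that the numbers pair the samples. Centring moved the median of all genes in epithelium from -0.10 to -0.42. Without detection calls, signal over background limits every member below the median of all values.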

Other observations

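Some members have a probe set, other than the brightest on average, that differed far more in epithelium, seen after the values were known. For Aqp4, the water channel of basolateral membranes, another probe set averaged 6.31 in epithelium and 2.45 in gland B cells, a difference of 3.87 where the probe set used gave 0.32. Another probe set of Kcnj16, an inward rectifier subunit, averaged 6.77 in epithelium, a difference of 4.78 against 1.39. Another of Kcnh1 averaged 6.67, a difference of 4.43 against 1.18. For Kcnmb1, an accessory subunit of the Kcnma1 channel, another differed by 2.12 where the one used gave 0.05.

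In CD4 T cells, another probe set of Kcnip2, a calcium-binding subunit of voltage-gated potassium channels, averaged 4.28 for gland and 5.87 for spleen arrays, a difference of -1.59 where the one used gave -0.22. Another of Kcna2 gave -1.31, and the one used -0.81.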
